A study of Salvia dorisiana with 6 samples.

Results

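The 4 transcripts described here encode the characterized enzymes of methylperillate (MePA) formation in *Salvia dorisiana*, and the question is how the transcript levels of successive steps stood to each other in each tissue. They were found by name in the column of characterized genes of the deposited table, which lists 85 transcripts, and are clust603 (SdLS), clust1545 (SdL7H), clust2459 (SdPOHDH) and clust2833 (SdPAOMT). The table names SdLS and SdEuS, a eucalyptol synthase, for the same cluster, so the value called SdLS below is that of both and cannot be told apart between them. RNA came from untreated greenhouse plants multiplied by cutting, and 6 tissues gave 1 library each: stem, roots, isolated trichomes, and leaves in 3 size classes, called small (<3 cm), medium (3–10 cm) and large (>10 cm) below. The trichome library came from a total trichome fraction of apical buds and young leaves, and the other 5 from whole organs. Since each tissue is a single library, differences between tissues could not be set against replicates and no test was made, and every interval below is an exact 95% interval for counting error only.

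MePA is a methyl ester of a monoterpene acid. In the mint family, monoterpenes are made and stored in the heads of glandular trichomes, small secretory hairs of the epidermis. The route starts in plastids, where a limonene synthase cyclizes geranyl diphosphate, and a P450 then hydroxylates the ring methyl group of limonene to give perillyl alcohol. An alcohol dehydrogenase oxidizes this to perillyl aldehyde, a further oxidation gives perillic acid, and a methyltransferase of the SABATH family moves a methyl group from *S*-adenosylmethionine to the acid. SdLS, SdL7H, SdPOHDH and SdPAOMT stand for these steps in that order, and no characterized gene stands for the oxidation of the aldehyde, so the ratio SdPOHDH over SdPAOMT spans it. Levels are RPKM, which divides reads by the length of the transcript and by the depth of its library, so that levels of different transcripts can be set side by side and the depth cancels in their ratio. Protein amounts and enzyme activities were not measured in these data.

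All 4 transcripts had their highest RPKM in trichomes, where a level above 1000 RPKM was a condition for being listed. When each library was scaled to its median listed transcript, roots stood at 871% of trichomes for SdLS, 244% for SdPOHDH and 2888% for SdPAOMT. Small leaves then stood at 111% for SdL7H and 120.3% for SdPOHDH. The listed transcripts were selected for a high trichome level, and in roots their median was 0.234% of that level. This scaling therefore removes the trichome excess by design, gives levels relative to the list only, and cannot show where a transcript was highest. In the 5 libraries from trichomes to stem SdLS and SdL7H stood well above SdPOHDH and SdPAOMT. The SdLS cluster was at 22369 RPKM in trichomes, 1817 in small leaves, 1016 in medium leaves, 323 in large leaves, 428 in stem and 455 in roots. SdL7H was at 9290 RPKM in trichomes, then at 1007, 589 and 213 in leaves of rising size, 185 in stem and 13.1 in roots. Large leaves were thus the lowest library for SdLS, while roots were the lowest for SdL7H. SdPOHDH was at 1009 RPKM in trichomes, then at 119, 51.9 and 20.3 in leaves of rising size, 19.7 in stem and 5.76 in roots. SdPAOMT was at 1557 RPKM in trichomes, then at 108, 51.4 and 13.8 in leaves of rising size, 14.4 in stem and 105 in roots. The order of the 4 was SdLS, SdL7H, SdPAOMT, SdPOHDH in trichomes, SdLS, SdL7H, SdPOHDH, SdPAOMT in the leaf libraries and stem, and SdLS, SdPAOMT, SdL7H, SdPOHDH in roots. Within a transcript, 3 neighbouring levels did not differ beyond counting error: SdPOHDH in large leaves and stem (1.03 times, 0.840–1.27), SdPAOMT in stem and large leaves (1.05 times, 0.807–1.35), and SdPAOMT in small leaves and roots (1.03 times, 0.939–1.12). In whole organs, fewer trichome cells and less RNA per cell cannot be told apart.

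**Figure D1:**
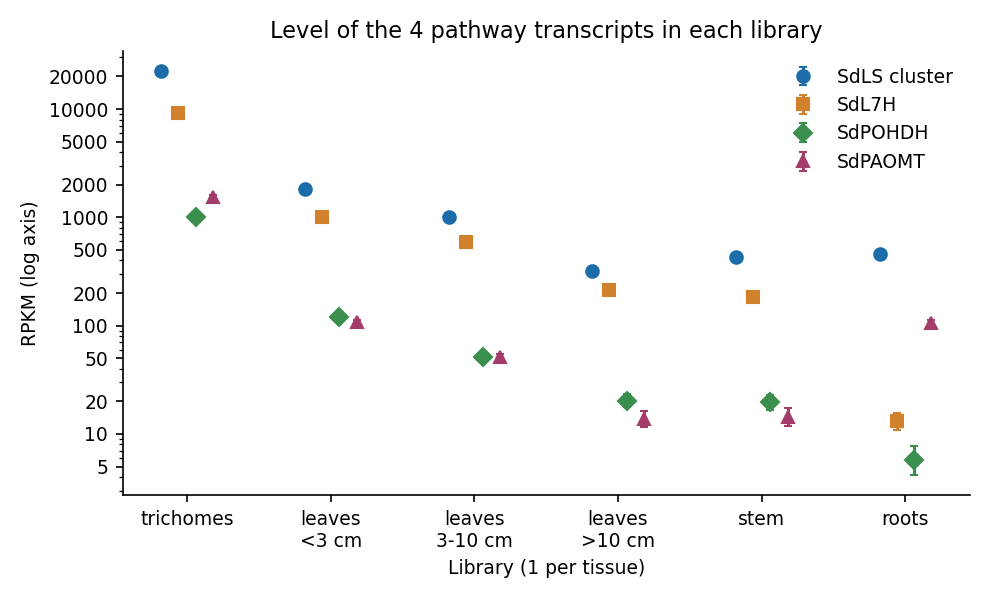
Level of the 4 pathway transcripts (RPKM, log axis) in the 6 libraries, 1 per tissue; bars are exact 95% Poisson intervals, most of them smaller than the symbols. SdPAOMT lies at 105 RPKM in roots, above SdL7H at 13.1 and SdPOHDH at 5.76, which is the order of no other library.

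The depth behind these levels was uneven. Fragments, that is read pairs, recovered from the RPKM values came to 3314347 mapped in the trichome library and 6516794 to 19415968 in the other 5. The members held at least 3833 fragments each in trichomes and at least 1047 in small and medium leaves. The thinnest values were SdPOHDH in roots with 43 fragments, SdPAOMT in stem with 111 and in large leaves with 137, and SdL7H in roots with 126. Ratios that use them have the widest intervals.

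The first step ratio, SdLS over SdL7H, was low and narrow in range above ground and high in roots. It was 2.41 in trichomes (2.38–2.43), 1.80 in small leaves (1.78–1.83), 1.73 in medium leaves (1.69–1.76), 1.51 in large leaves (1.45–1.58), 2.31 in stem (2.20–2.43) and 34.7 in roots (29.1–41.7). The SdLS cluster, with SdEuS included, was thus above SdL7H in every library. The ratio was lower in each larger leaf class, and in large leaves it stood at 0.840 times its value in small leaves (0.800–0.881). Trichomes and stem differed by 1.04 times (0.988–1.10), which counting error covers, whereas stem was 1.53 times (1.43–1.63) above large leaves. Because the cluster also covers SdEuS, the ratio for SdLS alone cannot be had from it.

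The second step ratio, SdL7H over SdPOHDH, varied least above ground. It was 9.21 in trichomes (8.91–9.52), 8.46 in small leaves (8.09–8.86), 11.4 in medium leaves (10.7–12.1), 10.5 in large leaves (9.16–12.1), 9.42 in stem (8.03–11.1) and 2.28 in roots (1.601–3.30). The P450 transcript exceeded that of the dehydrogenase in all 6 libraries. Large leaves differed from trichomes by 1.14 times (0.990–1.32) and stem from trichomes by 1.02 times (0.869–1.21), both within counting error. From small leaves to medium leaves the ratio was 1.34 times higher (1.24–1.45), the largest gap among the 5 libraries from trichomes to stem. Between these libraries SdPOHDH was 2.29-fold lower (2.13–2.47) and SdL7H 1.71-fold lower (1.68–1.75).

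The third ratio, SdPOHDH over SdPAOMT, crossed 1 between trichomes and the other shoot libraries. It was 0.648 in trichomes (0.622–0.676), 1.10 in small leaves (1.03–1.18), 1.01 in medium leaves (0.928–1.10), 1.47 in large leaves (1.18–1.83), 1.36 in stem (1.06–1.75) and 0.0548 in roots (0.0393–0.0746). SdPAOMT was therefore 1.54 times as abundant as SdPOHDH in trichomes (1.48–1.61) and 18.2 times in roots (13.4–25.4). In medium leaves the levels of both, 51.9 and 51.4 RPKM, did not differ beyond counting error. The ratio in large leaves was 2.27 times that in trichomes (1.82–2.84), and in stem 2.10 times (1.64–2.71). Large leaves and stem did not differ in this ratio beyond counting error (0.926 times, 0.663–1.29).

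**Figure D2:**
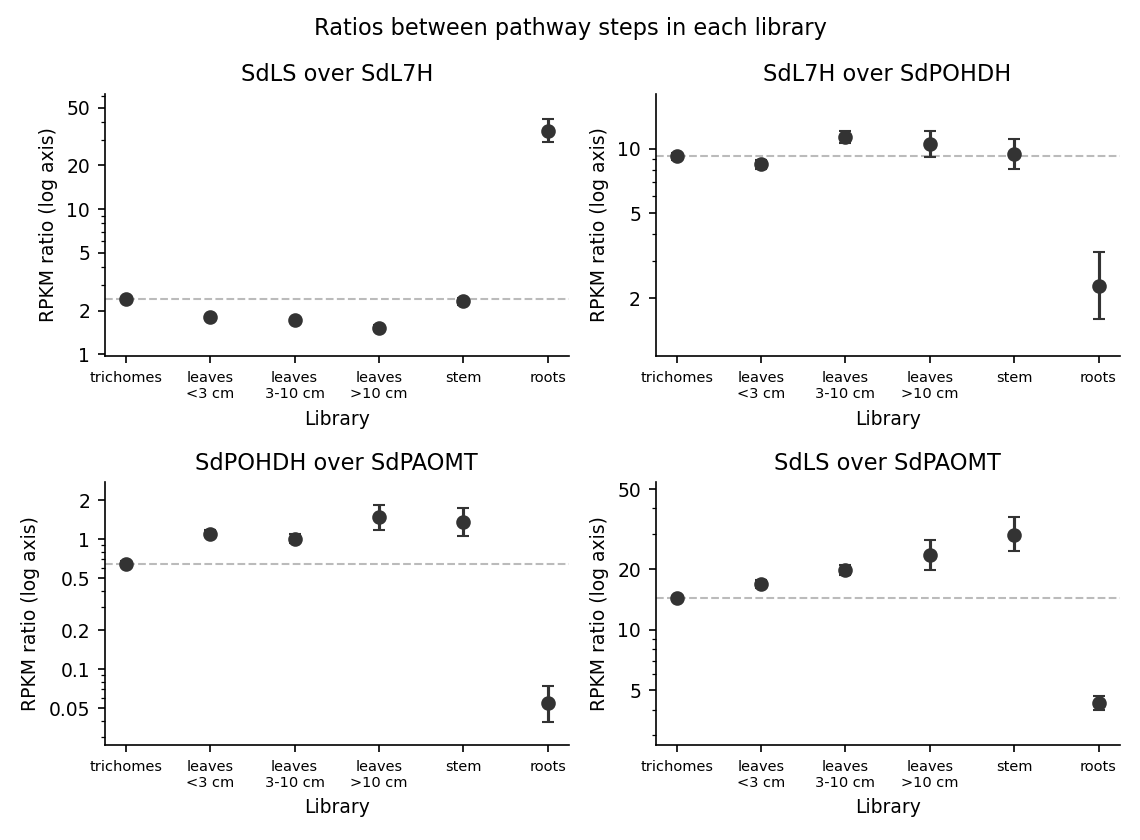
Ratio of RPKM between successive pathway steps, and from SdLS to SdPAOMT, in each of the 6 libraries (log axes that differ between panels); bars are exact 95% binomial intervals and the dashed line is the value in trichomes. SdL7H over SdPOHDH lies between 8.46 and 11.4 in the 5 libraries from trichomes to stem, and roots stand apart in all 4 panels.

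From end to end, SdLS over SdPAOMT was higher in each larger leaf and highest in stem. The ratio was 14.4 in trichomes (14.0–14.8), 16.9 in small leaves (16.1–17.7), 19.8 in medium leaves (18.6–21.1), 23.4 in large leaves (19.8–27.9), 29.7 in stem (24.6–36.1) and 4.33 in roots (4.01–4.69). It moved the opposite way to SdLS over SdL7H among the leaf libraries, so that from small leaves to large leaves the first step ratio was lower while the end-to-end ratio was 1.39 times higher (1.16–1.67). The last gap in that order, from medium leaves to large leaves, was 1.18 times (0.987–1.43) and did not exceed counting error. Stem over trichomes was 2.06 times (1.71–2.52). The ratio of SdPAOMT to SdLS in stem was thus just past a 2-fold lowering, with an interval that includes 2, beside 23.8% of the 84 other listed transcripts that were lowered by more than 2-fold there. With a pseudocount of 1 RPKM, SdLS over SdPAOMT was 27.8 in stem and 14.4 in trichomes, under 2-fold. In small, medium and large leaves 0 of the 3 members were lowered by more than 2-fold, beside 7.14%, 8.33% and 9.52%.

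As shares of the summed RPKM of the 4, SdLS took 65.4% in trichomes, 59.6%, 59.5% and 56.6% in leaves of rising size, 66.1% in stem and 78.6% in roots. SdL7H took 27.1% in trichomes, 33.01%, 34.5% and 37.4% in leaves of rising size, 28.6% in stem and 2.27% in roots. The SdL7H share was thus higher and the SdLS share lower in larger leaves, and stem lay near trichomes in both. SdPOHDH stayed between 2.95% and 3.90% in the 5 libraries from trichomes to stem and was at 0.994% in roots. SdPAOMT was at 4.55% in trichomes, 3.53%, 3.01% and 2.42% in leaves of rising size, 2.23% in stem and 18.1% in roots. The sum itself was 34225 RPKM in trichomes, 3051 in small leaves, and between 570 and 647 in large leaves, stem and roots.

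In leaves the 3 step ratios each stayed within 2-fold between the size classes, and in roots none stayed within 2-fold of its trichome value. A change of a ratio by more than 2-fold was counted, for the 3 step ratios and for all 3570 pairs of the 85 transcripts, which share transcripts and are not independent. From trichomes to small leaves and to medium leaves, 0 of the 3 step ratios changed by more than 2-fold, where 46.4% and 53.4% of all pairs did. From trichomes to large leaves and to stem, 1 of the 3 did, SdPOHDH over SdPAOMT in both, beside 71.1% and 70.6% of all pairs, and the intervals of both changes include 2. From trichomes to roots all 3 did, beside 78.1% of all pairs. Among the 3 leaf libraries, 0 of the 3 step ratios changed by more than 2-fold in any of the 3 comparisons, beside 17.5% of all pairs from small leaves to medium leaves, 44.6% from there to large leaves and 58.9% over both. From large leaves to stem the counts were 0 of 3 and 47.6%, and from stem to roots 3 of 3 and 76.8%. The study had chosen the listed transcripts on these libraries, by trichome level and by correlation with SdLS and with the metabolites, so these shares describe the list and support nothing about co-regulation.

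The spread of each ratio over the libraries shows the same split between shoot and roots. Without roots, the standard deviation (SD) of the log2 ratio over 5 libraries was 0.17 for SdL7H over SdPOHDH, 0.29 for SdLS over SdL7H, 0.46 for SdPOHDH over SdPAOMT and 0.41 for SdLS over SdPAOMT, where the median over all pairs was 1.10. A smaller SD than that of SdL7H over SdPOHDH was found in 0.812% of all pairs, and a smaller one than that of SdPOHDH over SdPAOMT in 12.1%. With roots, the SD over 6 libraries was 0.87 for SdL7H over SdPOHDH, 1.72 for SdLS over SdL7H, 1.80 for SdPOHDH over SdPAOMT and 0.98 for SdLS over SdPAOMT, beside a median of 1.71 over all pairs. The roots library alone thus placed SdLS over SdL7H and SdPOHDH over SdPAOMT at the middle of the list.

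**Figure D3:**
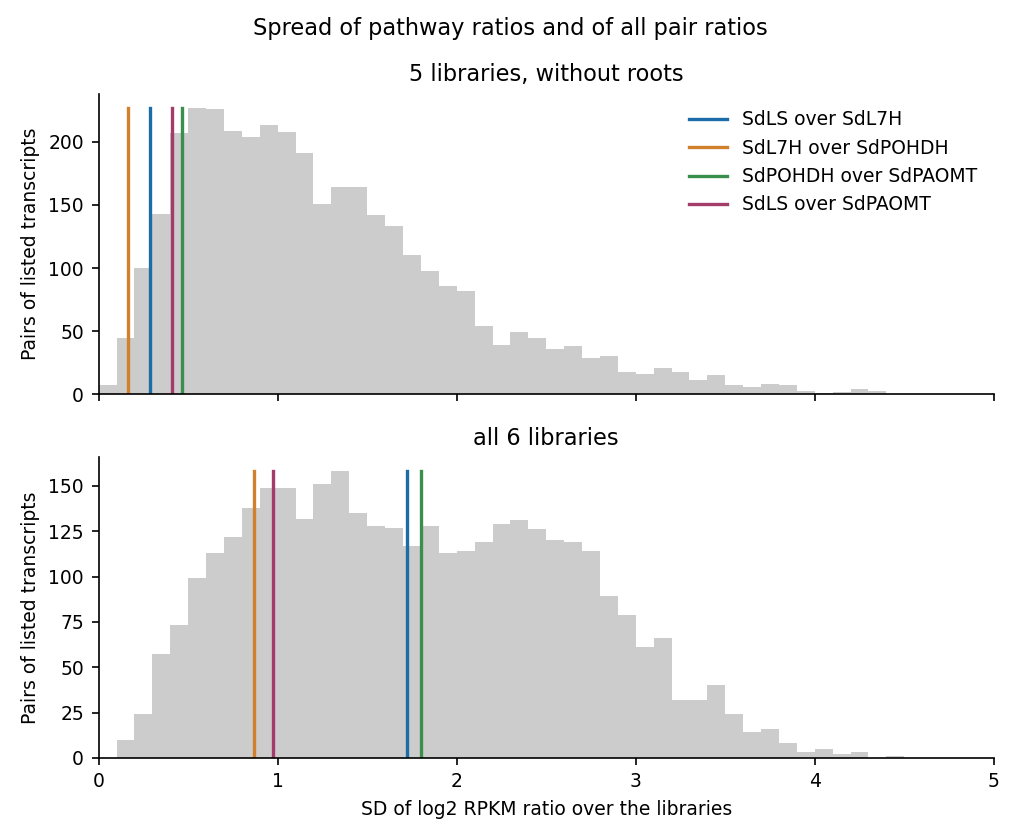
Number of pairs of listed transcripts by the SD of their log2 RPKM ratio over 5 libraries without roots (top) and over all 6 (bottom), with coloured lines for the 3 step ratios and for SdLS over SdPAOMT. Without roots the 4 lines lie between 0.17 and 0.46, left of the median of 1.10, and with roots between 0.87 and 1.80, around the median of 1.71.

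Each transcript of the pathway was lower in each larger leaf class, and by more than the median listed transcript. Small leaves over large leaves gave 5.62-fold for SdLS (5.47–5.79), 4.72-fold for SdL7H (4.54–4.91), 5.86-fold for SdPOHDH (5.10–6.77) and 7.81-fold for SdPAOMT (6.56–9.36), beside a median of 2.57-fold over the 85. The methyltransferase transcript had the largest of the 4 folds, and 9 of the 85 had a larger one. Small over medium leaves gave 1.79-fold for SdLS, 1.71-fold for SdL7H, 2.29-fold for SdPOHDH and 2.10-fold for SdPAOMT, larger for the 2 later steps than for the 2 earlier ones and without overlap of their intervals. Medium over large leaves gave 3.14-fold for SdLS (3.06–3.24), 2.76-fold for SdL7H (2.65–2.87), 2.55-fold for SdPOHDH (2.21–2.96) and 3.72-fold for SdPAOMT (3.11–4.48).

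In stem, the first 3 steps stood at nearly the same share of their trichome level and the last step at a lower one. The share was 1.91% for SdLS (1.86–1.97), 1.99% for SdL7H (1.90–2.08) and 1.95% for SdPOHDH (1.66–2.28), with overlapping intervals, against 0.927% for SdPAOMT (0.761–1.12). The median over the 85 transcripts was 2.24%. In large leaves the shares were 1.44% for SdLS, 2.30% for SdL7H, 2.01% for SdPOHDH and 0.886% for SdPAOMT, beside a median of 3.35%. SdLS was the member that differed most between these 2 libraries, 1.32 times higher in stem (1.28–1.38), whereas SdL7H was 0.868 times as high there (0.820–0.919). Relative to the median listed transcript, SdL7H stood at 89.0% of trichomes in stem and 68.5% in large leaves. In small leaves, SdL7H at 10.8% and SdPOHDH at 11.8% lay above the list median of 9.80%, and SdLS at 8.12% and SdPAOMT at 6.92% below it.

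**Figure D4:**
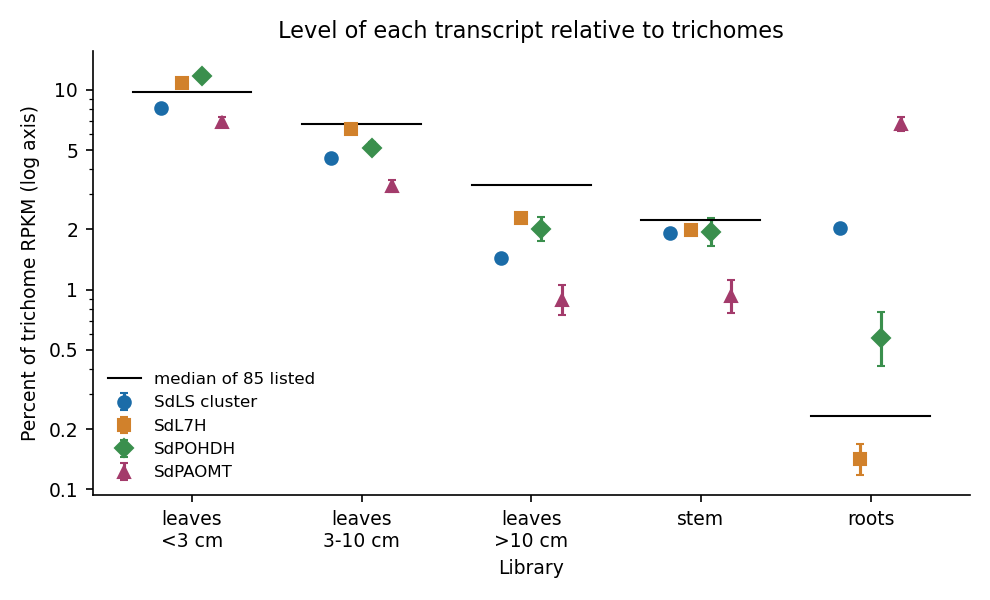
Level of each pathway transcript as a percent of its own trichome RPKM (log axis) in the 5 other libraries, with exact 95% binomial intervals; black lines are the medians over the 85 listed transcripts. In stem the SdLS cluster, SdL7H and SdPOHDH lie at 1.91% to 1.99% and SdPAOMT at 0.927%, and in roots the 4 range from 0.141% to 6.75%.

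In roots all 3 step ratios differed from trichomes by more than 2-fold, as did the ratios of 78.1% of all pairs of listed transcripts. A larger change was found in 43.2% of all pairs for SdLS over SdL7H. It was found in 61.9% for SdL7H over SdPOHDH and in 45.7% for SdPOHDH over SdPAOMT, so these changes lay near the middle of the list. Relative to trichomes, SdPAOMT was at 6.75% in roots (6.23–7.30), SdLS at 2.04% (1.98–2.09), SdPOHDH at 0.571% (0.412–0.770) and SdL7H at 0.141% (0.118–0.168), beside a list median of 0.234%. The first and the last step of the pathway were thus at 8.71 and 28.9 times the list median there, and SdPOHDH was at 2.44 times. Only SdL7H, the P450 of the second step, was below the median, at 0.605 times. SdPAOMT was 7.28 times higher in roots than in stem (5.95–8.97) and 7.61 times higher than in large leaves (6.33–9.21), and none of the other 84 listed transcripts had a larger ratio of roots over large leaves. Of the 85, 15 were higher in roots than in large leaves, SdLS with 1.41 times (1.36–1.46) among them. SdL7H was 14.1 times lower in roots than in stem (11.8–17.0) and SdPOHDH 3.41 times lower (2.43–4.89). Relative to the median listed transcript, which was lower still in roots, SdPOHDH stood at 244% of trichomes in roots and 87.0% in stem. Of the 84 transcripts other than SdLS, 53 or 63.1% had their ratio to SdLS lowered by more than 2-fold from trichomes to roots, SdL7H and SdPOHDH among them, and 26 or 31% had it raised, SdPAOMT among them. Root reads were mapped to sequences built from trichomes and were allowed several places, so reads of close relatives of a member cannot be told apart from its own.

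**Figure D5:**
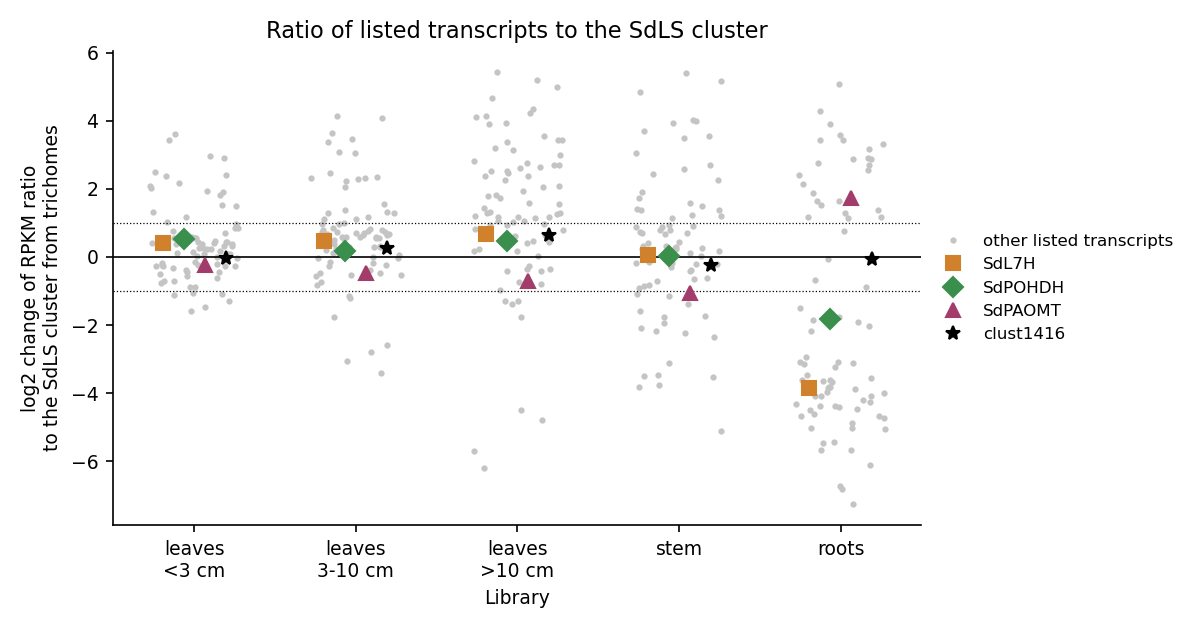
Change of the RPKM ratio to the SdLS cluster from trichomes to each other library (log2, so that 1 and -1 are 2-fold, dotted lines) for 84 listed transcripts; coloured symbols are the pathway members and the star is the aldehyde dehydrogenase clust1416. SdPAOMT is the lowest of the 3 members in leaves and stem and reaches -1.05 in stem, and in roots the members spread from -3.85 for SdL7H to 1.73 for SdPAOMT.

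The 3 listed transcripts with the steadiest ratio to each member did not include another member. Likeness was measured by the SD of the log2 RPKM ratio over the 6 libraries, as a description. The single roots library weighs heavily in this measure: for SdL7H over SdPOHDH the SD was 0.87 with roots and 0.17 without. Places without roots were not computed. For SdLS the 3 lowest were clust1416, annotated as an aldehyde dehydrogenase of family 2 (SD 0.31), clust1568, a P450 of the CYP76 family (0.37), and clust3337, closest to a lavandulyl diphosphate synthase (0.50), and the median over the other 84 was 1.64. For SdL7H they were the P450s clust1540 (0.17) and clust1600 (0.21), both annotated near ferruginol synthase of diterpene metabolism, and clust1946, an alcohol acyltransferase (0.21). The ratio of clust1540 to SdL7H stayed between 0.619 and 0.825 in all 6 libraries, roots included, where clust1540 was at 10.6 RPKM. For SdPOHDH they were clust629, labelled SdPS and annotated as a cineole, carene or limonene synthase (0.38), clust10, annotated as a transporter of the PDR type (0.43), and clust15, annotated as a fatty acid modifying methyltransferase (0.65). For SdPAOMT they were clust874, annotated near diterpene synthases (0.30), clust158, a 1-deoxy-D-xylulose 5-phosphate synthase (0.61), and clust2795, of unknown function (0.62). The synthase-like clust874 was at 118 RPKM in roots and 19.1 in stem, beside 105 and 14.4 for SdPAOMT. Among the members themselves, SdPOHDH was the nearest to SdLS at place 8 of 84 and to SdL7H at place 29, SdL7H the nearest to SdPOHDH at place 15, and SdLS the nearest to SdPAOMT at place 6.

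Within their enzyme classes the members held very different places. Classes were taken from the annotation of the table. The SdLS cluster, with SdEuS included, had the highest RPKM of the 13 terpene synthases in every library. In large leaves another terpene synthase was at 316 RPKM, within the counting interval of the cluster (323, 315–332). The cluster took 34.6% of their summed RPKM in trichomes, 26.0% in large leaves, 49.3% in stem and 70.2% in roots. SdL7H was second of the 10 P450s from trichomes to stem, with 16.4% to 19.9% of their sum, behind clust1609, annotated as a ferruginol synthase, and at place 3 in roots with 1.39%. SdPOHDH was between place 5 and place 8 of the 8 dehydrogenases or reductases and took 1.16% to 3.40% of their sum. SdPAOMT took 5.61% of the sum of the 9 methyltransferases in trichomes, 1.32% in large leaves, 1.83% in stem and 68.3% in roots, where it was the highest of the 9. The most abundant methyltransferase of the other 5 libraries was clust2514, at 11344 RPKM in trichomes and 8.67 in roots.

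Ratios between the class sums lay nearer to 1 than most ratios between the members. Terpene synthases over P450s gave 1.26 in trichomes, 0.730, 0.785 and 0.955 in leaves of rising size, 0.936 in stem and 0.689 in roots. P450s over dehydrogenases or reductases gave 1.39 in trichomes, 1.75, 1.48 and 0.760 in leaves of rising size, 0.717 in stem and 1.89 in roots. Dehydrogenases or reductases over methyltransferases lay between 1.33 and 1.71 in the 5 libraries from trichomes to stem and at 3.23 in roots. For this pair the ratio of the members was the nearer to 1 in the leaf libraries and stem. In roots the ratio of the class sums was therefore 0.689 where SdLS over SdL7H was 34.7, and 3.23 where SdPOHDH over SdPAOMT was 0.0548. The high first ratio and the low last ratio of the members in roots were thus not seen in the class sums. Single transcripts held most of these root sums: clust1609 had 750 of 942 RPKM of the P450s. SdLS held 70.2% of the terpene synthases and SdPAOMT 68.3% of the methyltransferases, so the root ratios do not describe whole classes.

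Most listed transcripts upstream of SdLS stood higher relative to it in large leaves and roots than in trichomes. The plastidic methylerythritol phosphate (MEP) pathway makes the precursors of geranyl diphosphate, and 8 listed transcripts were grouped under it. They include clust3980, an isopentenyl diphosphate isomerase, which acts on the products of the pathway and is not a step of it. Together they were at 25111 RPKM in trichomes, 112% of the SdLS cluster, and this share was 148% in small leaves, 195% in medium leaves, 776% in large leaves, 197% in stem and 596% in roots. The 84 listed transcripts other than SdLS summed to 1145% of it in trichomes, 1731%, 2126% and 4675% in leaves of rising size, 2872% in stem and 2268% in roots. The sum of the list thus also stood higher relative to SdLS outside trichomes. The median change of the 84 ratios to SdLS from trichomes was 1.21, 1.49 and 2.37 times in leaves of rising size and 1.17 times in stem. In roots it was 0.114 times, so most of the list stood lower relative to SdLS there. In small leaves 0 of the 8 had a ratio to SdLS more than 2-fold above that in trichomes, beside 21.4% of the 84 listed. In medium leaves it was 1 of the 8, beside 26.2%. In large leaves it was 7 of the 8, beside 59.5%, in stem 3 of the 8, beside 28.6%, and in roots 7 of the 8, beside 31%. A ratio lowered by more than 2-fold was found in 0 of the 8 in each leaf library and in stem, beside 7.14%, 8.33% and 9.52% in leaves of rising size and 23.8% in stem, and in 1 of the 8 in roots, beside 63.1%. The highest value in large leaves and in roots was that of clust5857, the reductoisomerase of the second step of the MEP pathway, with 15.0 and 9.88 times its trichome ratio to SdLS. The lowest was that of the isomerase clust3980, with 1.18 times in large leaves and 0.0820 times in roots. It was thus the only one of the 8 not raised by more than 2-fold in large leaves and the only one lowered in roots. The 2 listed prenyltransferases, both closest to lavandulyl diphosphate synthase, were together at 17.9% of SdLS in trichomes, 11.2% in small leaves, 29.5% in large leaves and 7.40% in roots. A geranyl diphosphate synthase, the enzyme that makes the substrate of limonene synthase, is not among the annotated names of the list.

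The unassigned step is the oxidation of an aldehyde to an acid, and a single listed transcript is annotated as an aldehyde dehydrogenase. The study names P450s as well as aldehyde dehydrogenases for such oxidations of terpenes. The list holds 10 P450s, SdL7H among them, so the annotation does not single out a candidate. The aldehyde dehydrogenase, clust1416, was at 2393 RPKM in trichomes, then at 189, 130 and 54.2 in leaves of rising size, 39.2 in stem and 47.1 in roots. Its level over SdPOHDH was 2.37 in trichomes (2.29–2.46), 1.59 in small leaves (1.504–1.67), 2.50 in medium leaves (2.34–2.68), 2.67 in large leaves (2.30–3.12), 1.99 in stem (1.66–2.40) and 8.17 in roots (5.97–11.4). Its level over SdPAOMT was 1.54 in trichomes (1.49–1.59), 1.75, 2.53 and 3.93 in leaves of rising size, 2.72 in stem and 0.448 in roots (0.398–0.504). It was thus above both flanking steps in the 5 libraries from trichomes to stem and between them in roots. Over SdLS it lay between 0.0916 and 0.168 in all 6 libraries, with 0.107 in trichomes (0.105–0.109) and 0.103 in roots (0.0939–0.114). The annotation alone names its class, and activity on perillyl aldehyde was not examined in these data.

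Listed transcripts annotated to phloem and to cuticle or fatty acid formation moved with trichomes and leaf size too. The 2 transcripts annotated as sieve element occlusion proteins of phloem were both above 0 in every library. Their summed level was 2898 RPKM in trichomes, 679 in small leaves, 75.4 in medium leaves and 6.99 in large leaves. It was only 10.1 in stem and 3.10 in roots, and the lower of the 2 was at 0.752 in large leaves and 0.794 in stem. The 3 transcripts annotated to cuticle or fatty acid formation were also detected in every library. They summed to 4343 RPKM in trichomes, 533 in small leaves and 4.54 to 339 in the other 4. These 3 were taken as a mark of epidermis, the layer that bears the trichomes, so they set no other cell type apart. All 5 had been selected for their trichome level, so they do not check the tissue labels, and their part in the step ratios was not tested.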

How the data were processed

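Libraries of poly(A) RNA were made with a stranded kit and sequenced from both ends by the authors. The submitters' processing notes name CASAVA 1.8.1, used for de-multiplexing. They mapped reads with CLC Genomics Workbench, in either orientation and allowing several places per read, to trichome PacBio open reading frames clustered by similarity, and deposited RPKM values for the transcripts above 1000 RPKM in trichomes and 0.6 in 2 correlations. The 2 correlation scores in the deposited table are the authors' own comparisons and were not used. No RPKM column of other samples was present (0).

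Step ratios were taken from RPKM as deposited, with no pseudocount and no filter. Fragments were recovered as whole numbers from RPKM, with coding lengths in multiples of 3 from 600 to 3000 nt and the smallest fitting library totals. All 510 values were whole to within 0.001 of a fragment, with recovered lengths from 609 to 2961 nt (1779 for SdLS, 1473 for SdL7H, 1146 for SdPOHDH and 1050 for SdPAOMT). Tested on simulated data, 5 tables of 85 transcripts, the search found 30 of 30 totals and all fragments of 99.3% of the transcripts. The simulated lengths were also multiples of 3 within this range and the totals whole numbers, so the simulation cannot check these assumptions. True totals can be multiples, and intervals would then be too wide. Intervals were exact Poisson (levels), Clopper-Pearson (ratios) and conditional odds ratio (changes of ratios) at 95%, for counting error only, since reads without molecular identifiers are not independent molecules.

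Named transcripts were the 4 members, the 3 with the smallest SD of the log2 ratio to each member, the aldehyde dehydrogenase, the extremes of the precursor list and the highest of each class. Members, lists and alternatives were chosen with earlier results of these data known. Alternatives were a pseudocount of 1 RPKM, fragments not scaled by length, folds of 1.5 and 3, a minimum of 1 RPKM, leaving out roots or trichomes, and scaling to the median listed transcript. Computation used scipy 1.17.1 with numpy 2.4.6 and pandas 2.3.3 under Python 3.11.15, and plots used matplotlib 3.10.9.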

Additional observations from a re-analysis of the deposited data

How the results depend on the processing

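Ratios within a library do not depend on its total, and a pseudocount of 1 RPKM left all 24 reported ratios (3 steps and end to end, 6 libraries) within their counting intervals. Counted in fragments without scaling by length, SdLS over SdL7H was 2.91 in trichomes, 2.18, 2.08 and 1.83 in leaves of rising size, 2.79 in stem and 41.9 in roots. SdL7H over SdPOHDH was then 11.8, 10.9, 14.6 and 13.5 in trichomes and the 3 leaf libraries and 12.1 in stem, SdPOHDH over SdPAOMT was 0.707 in trichomes, 1.21 in small leaves and 1.10 in medium leaves, and SdLS over SdPAOMT was 24.3, 28.6, 33.5 and 39.7 in trichomes and the 3 leaf libraries, 50.2 in stem and 7.34 in roots. This setting multiplies each ratio by a constant, so changes between libraries are the same. With a fold of 1.5, from trichomes 1 of the 3 step ratios changed to small leaves, 1 to medium leaves and 2 to large leaves, beside 65.4%, 69.3% and 82.9% of all pairs, and 1 changed from large leaves to stem, beside 65.9%. With a fold of 3, 0 of the 3 changed from trichomes to large leaves and 0 to stem, beside 55.8% of all pairs in both.

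The SD of the log2 ratio without roots was 0.29, 0.17, 0.46 and 0.41 for SdLS over SdL7H, SdL7H over SdPOHDH, SdPOHDH over SdPAOMT and SdLS over SdPAOMT, without trichomes 1.92, 0.96, 2.02 and 1.09, and with the pseudocount 1.68, 0.90, 1.71 and 0.95. The roots library thus set most of the spread. Scaling to the median listed transcript moved all 20 levels relative to trichomes beyond counting error. Values above the trichome level then arose in roots for SdLS (871% of trichomes), SdPOHDH (244%) and SdPAOMT (2888%). In small leaves they arose for SdL7H (111%) and SdPOHDH (120.3%). This scaling removes the trichome excess that the list was selected for, so these values are relative to the list and reverse no level. The pseudocount ended the change past 2-fold of SdLS over SdPAOMT from trichomes to stem (27.8 against 14.4). No paired analysis was possible because each tissue has 1 library. SdPOHDH with 43 fragments and SdL7H with 126 limit the root ratios.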
